A study of Mus musculus with 8 samples.

Results

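The genes described here are those of the cytosolic ribosomal proteins, the proteins of the cell's own ribosomes outside the mitochondria. They were taken as every row of the expression table whose sole gene symbol is Rpl or Rps with a number, Rplp0 to Rplp2 or Rpsa, without the Rps6k kinases and pseudogene names. That gave 22 genes, each with 1 row, of the 14860 genes that have a row of their own among 16755 rows. The samples were gastrocnemius muscle, the large muscle of the calf, from male C57BL/6 mice aged 12 weeks. The control mice ate plain chow, and the treated mice ate the same chow with 0.27% ursolic acid, a plant triterpenoid, for 5 weeks. Muscle RNA of 2 mice was combined into each pool, and 4 control and 4 ursolic acid pools were each measured on 1 array. The labels name no other treatment in either group.

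A ribosome consists of a large and a small subunit, each a set of proteins folded around ribosomal RNA. The large subunit joins amino acids, and the small one reads the mRNA. In mammals the mRNAs of ribosomal proteins start with a run of pyrimidines, the 5′ terminal oligopyrimidine or TOP motif, through which the kinase mTORC1 and the binding protein LARP1 control their translation. Growth of muscle fibres is known to need more ribosomes, so these genes are often followed in studies of muscle mass.

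Of the 22 genes, 12 are named for the large subunit (Rplp0, Rpl4, Rpl8, Rpl10a, Rpl22, Rpl23, Rpl31, Rpl35a, Rpl37 and the paralogs Rpl3l, Rpl7l1 and Rpl39l). A further 9 are named for the small subunit (Rpsa, Rps3, Rps9, Rps15, Rps18, Rps20, Rps24, and the paralogs Rps4l and Rps27l). The last, Rps19bp1, encodes a nucleolar protein that binds Rps19 and is no ribosomal protein, although its symbol meets the rule. RefSeq lists Rps4l as a transcribed pseudogene. Another 33 rows carry a ribosomal protein symbol together with other symbols, often those of pseudogenes, and cannot be given to 1 gene. Ribosomal protein genes have many near-identical processed copies in the genome, so part of the signal of any row may come from such copies.

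The annotated starts of the genes were read from RefSeq (GRCm38.p6) to show which carry the TOP motif there. A promoter was held for 19 of the 22 genes. A C within 5 bases of the annotated start, followed by at least 4 bases that are C or T, was present in 6 of the 19 genes, or 31.6%, against 21.2% of 27025 genes with a promoter. The sequences of 5 of them, 15 bases on each side of the start, are shown because their run is 7 bases or longer; the 6th, Rps27l, has a run of 5. Capitals mark the pyrimidine run, and each is written 5′ to 3′ on the gene's own strand.

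Rps18 on chromosome 17, minus strand: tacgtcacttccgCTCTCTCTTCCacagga

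Rps9 on chromosome 7, plus strand: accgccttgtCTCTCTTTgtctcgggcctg

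Rpl35a on chromosome 16, plus strand, at the second of 3 annotated starts: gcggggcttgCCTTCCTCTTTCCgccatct

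Rps24 on chromosome 14, plus strand, at the first of 2 annotated starts: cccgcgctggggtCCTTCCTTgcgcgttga

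Rpl31 on chromosome 1, plus strand: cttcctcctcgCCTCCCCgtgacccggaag

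Rpl3l, shown for contrast at the first of its 2 annotated starts on the plus strand of chromosome 17, has no such run within the limit set: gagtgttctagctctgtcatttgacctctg

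In Rps18 the run was 11 bases long and began 2 bases before the annotated start. RefSeq starts can lie some bases from the start used in muscle, so a missing run says only that these letters are not in this window. In the whole 300-base window, from 250 bases before to 50 after the start, the letters CGGAAG, the core bound by ETS factors such as GABP, were found on either strand in 11 of the 19 genes (57.9%, against 18.8% of all genes). The letters AANATGGC, which the factor YY1 binds, were found in 3 of 19 (15.8%, against 6.96%). No match of one overlapped a match of the other in these genes, and a match is a description of sequence, not a bound site. Both motifs were chosen after these promoters were seen, so the shares are no test of enrichment.

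Before the results, 2 features of the samples matter. The grouping used here is that of the titles and treatment labels, whereas the free-text description states the opposite treatment for 4 of the 8 samples (controls 2 and 4, ursolic acid 1 and 3). Control 1 stood apart from the other arrays, with a mean Spearman correlation of 0.977 with them against 0.983 to 0.986 for the rest. Muscle identity was clear, since the 7 measured fast fibre markers, among them Acta1, Ckm and Actn3, had control means of 11.0 to 12.5 on the log2 scale where array medians were 5.55 to 5.61. Signal above background is not given per row, and precision is limited by having 4 arrays in each group. In whole muscle, fewer cells of a type and less RNA per cell cannot be told apart.

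The diet comparison showed small differences in both directions among the ribosomal protein genes, and none passed correction over the whole table. By limma, a linear model with moderated variance, 0 of the 22 genes had a Benjamini-Hochberg adjusted p under 0.05, as did 0 of all 16755 rows (0%), and the smallest adjusted p of a member was 0.539. With ursolic acid 13 of the 22 had higher means and 9 lower ones. The median log2 difference, ursolic acid minus control, was 0.02, with quartiles of −0.10 and 0.09. Over all genes the median was −0.01, and over the 518 genes whose mean log2 value reached 9 it was 0.02. At an unadjusted p of 0.05, 3 of 22 genes passed, or 13.6%, where 7.07% of all rows did. Of these, 2 were higher (4.08% of all rows) and 1 was lower (3.00% of all rows). The 33 rows with several symbols, which are not members, had 19 higher and 14 lower means and a median difference of 0.02. Among them 3 had an unadjusted p under 0.05 (9.09%), all lower, and 0 passed adjustment.

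Rps18, a protein of the head of the small subunit, was the member with the smallest p. Its log2 values were 6.41, 5.92, 6.09 and 5.97 in controls 1 to 4 and 5.84, 5.04, 5.77 and 5.62 with ursolic acid. All 4 ursolic acid pools lay below all 4 controls, with ursolic acid 2 far below the others. The difference was −0.53 ± 0.17 (SE), or 0.695 of the control value, with a 95% interval of −0.91 to −0.14 (limma adjusted p = 0.539). It was −0.35 without ursolic acid 2. The row was dim: its ursolic acid mean, 5.57, lay among the array medians of 5.55 to 5.61, and its control mean was 6.09. Whether such values lie above background is not given.

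Rps20, another protein of the small subunit's head, had log2 values of 8.628, 8.739, 8.901 and 8.473 in controls and 8.903, 8.923, 8.975 and 8.949 with ursolic acid. The groups did not overlap, but the highest control and the lowest ursolic acid pool were almost level, and the controls were the more spread (SD 0.18 against 0.03, n = 4 each). The difference was 0.25 ± 0.09, or 1.19-fold (limma adjusted p = 0.583).

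Rplp0, the base of the stalk that draws elongation factors to the ribosome, had log2 values of 7.73, 7.94, 7.94 and 7.99 in controls and 7.95, 8.14, 8.13 and 8.08 with ursolic acid. The groups overlapped, since ursolic acid 1 lay below control 4. The difference was 0.18 ± 0.08, or 1.13-fold (limma adjusted p = 0.703). Rplp0 is often used as a reference gene in quantitative PCR. Its 95% interval ran from 0.002 to 0.35, and without control 1 the difference was 0.12 (unadjusted p = 0.123).

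Groups without overlap were seen in 2 of the 22 genes, Rps20 higher and Rps18 lower, or 9.09% of the members. Over all rows the share was 4.49%, made of 2.66% higher and 1.83% lower. Without control 1 the count was 4, or 18.2% against 7.81% of all rows, and without ursolic acid 1 it was 4, against 7.62%. The plot of values by sample shows these genes beside a steady member, a paralog and members low in control 1.

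**Figure D1:**
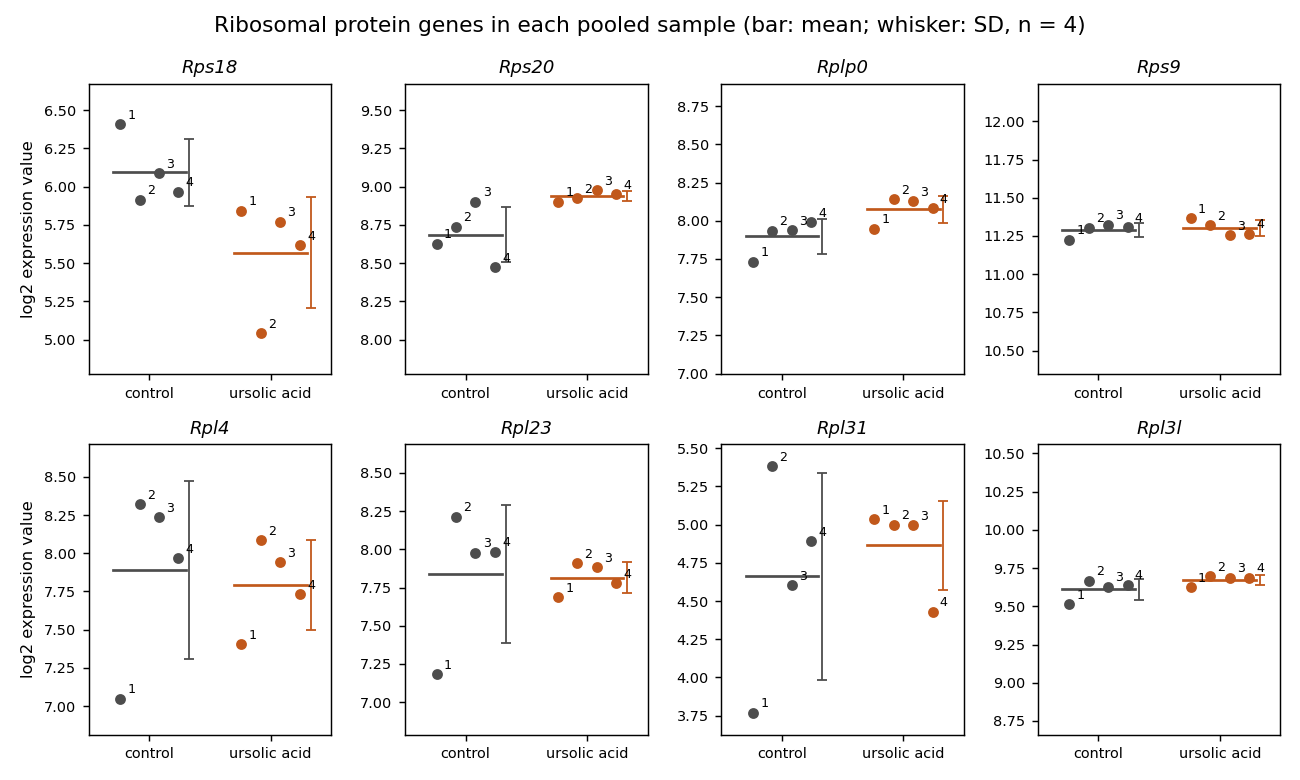
Log2 expression value (y axis, the same span of 1.9 in every panel) of 8 genes in the 4 control (grey) and 4 ursolic acid (orange) pools, with sample numbers beside the points, the mean as a bar and the SD as a whisker. In Rps18 and Rps20 the groups do not overlap, Rps9 stays between 11.23 and 11.37, and in Rpl4, Rpl23 and Rpl31 control 1 lies below the other 7 pools.

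The other members of the small subunit had an unadjusted p above 0.05. Rps3 and Rps9 line the channel where mRNA enters. Rps3 had a difference of 0.11 ± 0.07 (SE): its controls were 9.93 to 9.99, and 3 ursolic acid pools lay at 10.11 to 10.13 while ursolic acid 2 was the lowest of all at 9.91. Rps9 was the steadiest, with control values of 11.23 to 11.32, ursolic acid values of 11.25 to 11.37, and a difference of 0.01 with an interval of −0.12 to 0.15. Rpsa, also known as the laminin receptor precursor, had a difference of 0.13 ± 0.13.

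Rps24, a protein of the small subunit's body, had log2 values of 7.65, 7.77, 7.25 and 8.29 in controls and 7.52, 7.63, 7.50 and 7.61 with ursolic acid. The controls spanned more than the whole ursolic acid group, and the difference was −0.17 ± 0.18. Rps15, which sits near the decoding site, had control values of 4.03 to 4.89 and ursolic acid values of 3.81 to 4.39, with a difference of −0.26 ± 0.19 that ran from −0.12 (without control 3) to −0.41 (without control 2) when 1 pool was left out. Over the 9 small subunit genes, 4 had higher means and 5 lower ones, and the median difference was −0.09. Of the 9, Rps18 and Rps20 had an unadjusted p under 0.05 (22.2%, against 7.07% of all rows). The same 2 had groups without overlap (22.2%, against 4.49% of all rows).

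Of the 12 large subunit genes 8 had higher means and 4 lower ones, and the median difference was 0.04. Rplp0 alone had an unadjusted p under 0.05, or 8.33% of them against 7.07% of all rows. Rpl8, near the peptidyl transferase centre, had control values of 9.68 to 9.80 and ursolic acid values of 9.77 to 9.83, a difference of 0.05 ± 0.06. Rpl10a, part of the L1 stalk, had a difference of 0.01 ± 0.12, and Rpl35a had one of 0.06 ± 0.12. Rpl22, an RNA-binding protein of the subunit's surface, had a difference of −0.09 ± 0.11. Rpl37 had control values of 4.08 to 4.87 and ursolic acid values of 3.78 to 4.81, a difference of −0.27 ± 0.24. These intervals all include 0 and some are wide: for Rpl37 the interval ran from −0.80 to 0.25 and for Rpl31 from −0.44 to 0.85.

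Among the paralogs, Rpl3l is the form of Rpl3 made in skeletal muscle and heart. Its log2 values were 9.51, 9.67, 9.63 and 9.64 in controls and 9.63, 9.70, 9.69 and 9.69 with ursolic acid. The groups overlapped, and the difference was 0.06 ± 0.06, with an interval of −0.08 to 0.20. Rpl3 itself was not analysed here. Rps27l, a paralog of Rps27 that p53 induces, had a difference of −0.11 ± 0.08. The paralog Rpl7l1 had one of 0.14 ± 0.14, Rps4l one of −0.09 ± 0.12, and Rpl39l, known from testis, one of 0.03 ± 0.10. None of the 5 paralogs had an unadjusted p under 0.05, where 7.07% of all rows did, so so few genes say little. Rps19bp1, the binding protein, had a difference of 0.04 ± 0.08.

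**Figure D2:**
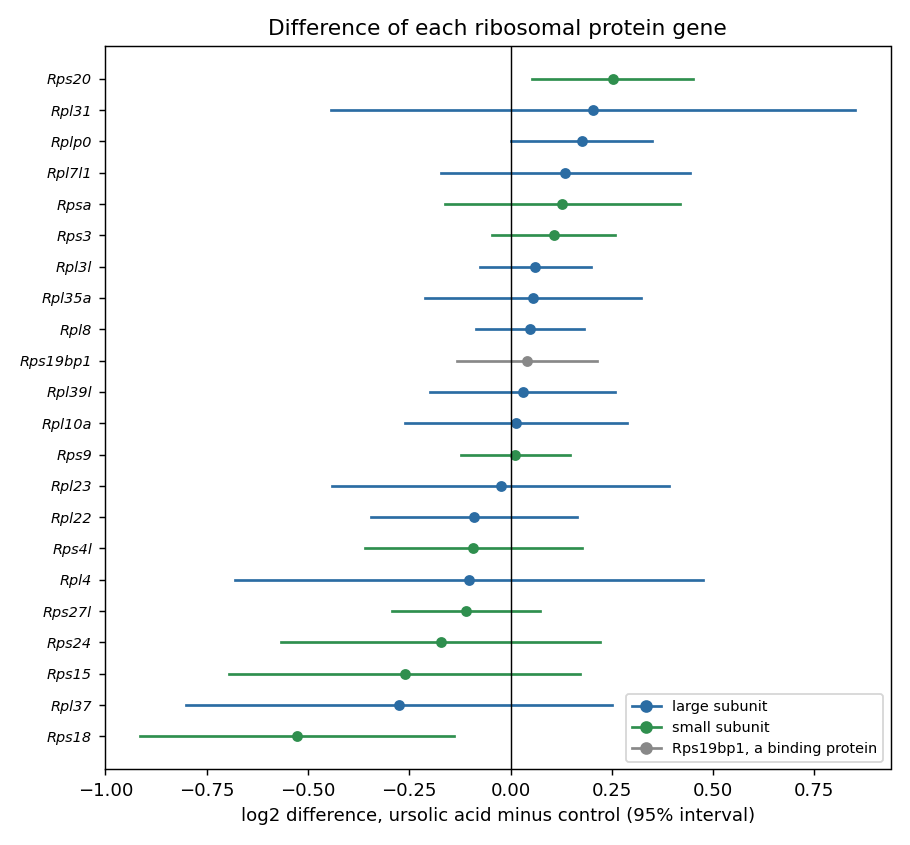
Log2 difference of each of the 22 genes, ursolic acid minus control (x axis), as a point with its 95% limma interval, coloured by subunit. The intervals of Rps20 and Rplp0 lie above 0 and that of Rps18 below 0, the other 19 include 0, and no gene passed adjustment over all rows.

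The spread between pools was larger in these genes than in most. The median SD within groups was 0.20 over the 22 members, 0.12 over all genes and 0.07 over the 518 genes with a mean of at least 9. It was also uneven: for the 6 members with a mean of at least 9 (Rps9, Rps27l, Rps3, Rpl8, Rpl3l and Rpl22) the median SD was 0.07, and for the 4 with a mean below 5.5 (Rps15, Rpl31, Rpl37 and Rpl39l) it was 0.38. Levels of different rows depend on their probes and do not rank the mRNAs. The median standard error of a difference was 0.12 for the members and 0.09 for all genes.

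Much of the spread in the controls came with control 1. It was the lowest of all 8 arrays in 12 of the 22 genes, or 54.5%, where it was lowest in 19.9% of all rows. The large subunit genes showed it most: their mean deviation from each gene's average was −0.283 in control 1 and 0.006 to 0.145 in the other controls, while the small subunit value in control 1 was 0.014. In 4 members, or 18.2%, control 1 lay more than 0.5 below the mean of the other controls, where 1.92% of all genes and 0.193% of those with a mean of at least 9 did.

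Rpl4, which lines the exit tunnel of the growing protein, had log2 values of 7.05 in control 1 and 8.32, 8.24 and 7.97 in controls 2 to 4. Its ursolic acid values were 7.40, 8.09, 7.94 and 7.73. Control 1 and ursolic acid 1 were the lowest of their groups.

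Rpl23, at the face where the subunits meet, had 7.18 in control 1 and 8.21, 7.98 and 7.98 in the other controls. With ursolic acid it had 7.69, 7.91, 7.88 and 7.78. Control 1 stood alone, below every other pool. Rpl31, near the tunnel's exit, lay farther below the mean of the other controls there than any of the 22, at 3.77 in control 1 against 4.60 to 5.38 in the other controls and 4.43 to 5.04 with ursolic acid.

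Not every member was low in control 1. Rps18, Rpl37 and Rpl39l, 3 of the 22 genes, had their highest value of all 8 arrays there. Over the whole table control 1 was the highest array in 21.6% of all rows, as well as the lowest in 19.9%. In Rps15 its value was 4.70, above 2 of the other controls. In Rpl7l1, Rps4l, Rpl10a and Rpl22 control 1 was below the mean of the other controls by 0.40 to 0.61.

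**Figure D3:**
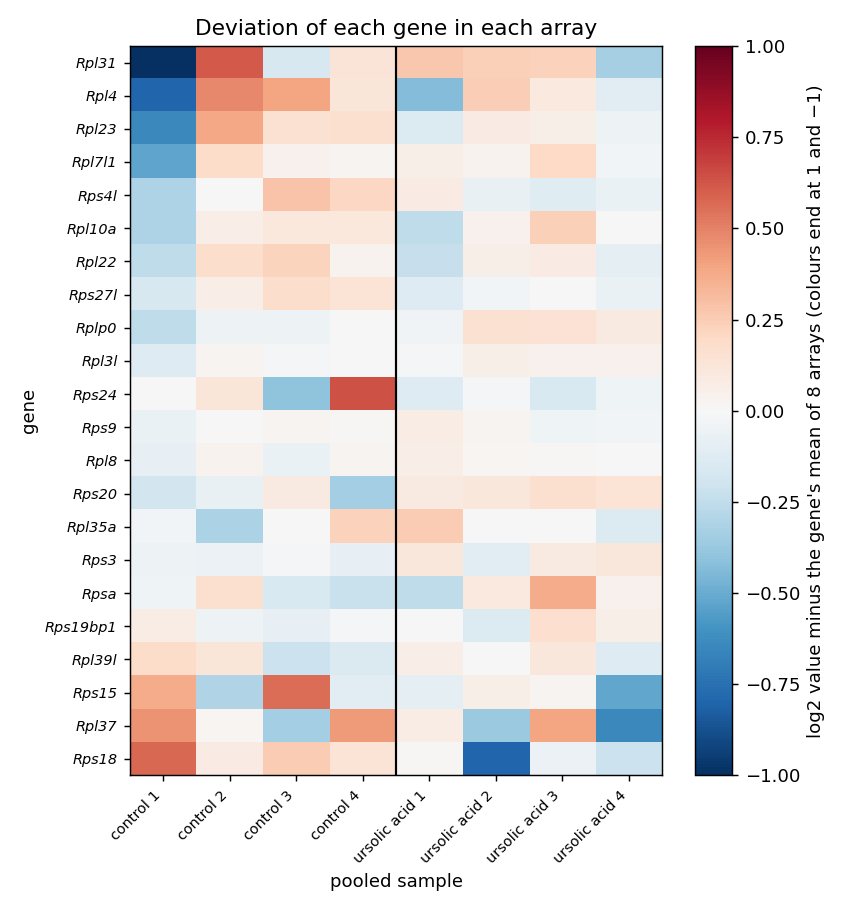
Log2 value of each gene in each of the 8 pools minus that gene's mean of the 8 arrays (colour; red above, blue below), with genes ordered by how far control 1 lies below the other controls and the groups parted by a line. Control 1 is the lowest array in 12 of the 22 genes, with Rpl31, Rpl4, Rpl23 and Rpl7l1 the farthest below, and is the highest in Rps18, Rpl37 and Rpl39l.

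Without control 1 the median difference changed sign, and still no member passed adjustment. It went from 0.02 to −0.05. Lower means with ursolic acid were then seen in 13 of the 22 genes instead of 9, and in 8985 of all 16755 rows. The median was also just below 0 without ursolic acid 3 (−0.0053) and with array weights (−0.0052). At an unadjusted p of 0.05, 6 genes passed (27.3%, against 7.16% of all rows), 1 higher and 5 lower (22.7%, against 3.27% of all rows). The lower ones were Rps27l (−0.18), Rpl23 (−0.24), Rpl4 (−0.38), Rps18 (−0.42) and Rps4l (−0.21), and the higher one was Rps20 (0.23). By limma their adjusted p-values were 0.621 to 0.687 with 3 controls against 4. Control 1 was singled out here because it was low in many members. Leaving it out raised the control means of those genes, so these counts are no independent evidence of a decrease. Whether control 1 or the other controls better represent untreated muscle was not tested.

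The descriptions that contradict the titles divide each group into 2 pools described as treated and 2 described as untreated. Within both classes Rps18 was lower with ursolic acid, by −0.61 among pools described as treated and −0.44 among those described as untreated. Rps20 was higher within both (0.33 and 0.17), as was Rplp0 (0.15 and 0.20). Of the 22 genes, 10 had the same sign in both classes, and the median difference was −0.06 in the first class and 0.10 in the second, which holds control 1. With the description as a covariate the same 3 genes had an unadjusted p under 0.05 (13.6%, against 8.70% of all rows). In the 4 samples whose title and description give the same treatment, 2 genes had one, Rps18 (−0.92) and Rps15 (−0.70), or 9.09% against 10.7% of all rows. With the groups taken from the description instead of the title, 12.5% of all rows had one, where the titles gave 7.07%.

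Macrophage markers had higher means with ursolic acid, and none passed adjustment over all rows. The median difference of the 11 measured genes was 0.42, and each of them was higher. Their limma adjusted p-values were 0.0845 to 0.648, and all 11 had an unadjusted p under 0.05, against 7.07% of all rows. The lowest of these, 0.0845 for C3ar1, Ctss, Cd74 and Tyrobp, was also the lowest over all rows. These markers were listed with earlier results of these data known, so their count is no independent test. Their mean deviation from each gene's average was −0.324 to −0.123 in controls and 0.148 to 0.323 with ursolic acid. Their control levels ran from 4.79 to 7.43. Fast fibre markers had a median difference of 0.00, the 3 measured slow fibre markers one of −0.17 and the 6 fibroblast markers one of 0.11. The 4 endothelial markers and the 3 of satellite cells, the muscle stem cells, all had lower means, with medians of −0.09 and −0.11. Medians were −0.04 for 4 adipocyte, 0.08 for 4 T and B cell and 0.01 for 3 red cell markers. The part of any of these in the ribosomal protein values was not tested. In control 1 the macrophage value, −0.227, lay within the range of the controls, as did the slow fibre, fibroblast and red cell values. Its adipocyte (0.272), T and B cell (0.204), satellite cell (0.192) and fast fibre (0.007) values were the highest of the controls. Its endothelial value (−0.035) was the lowest of them.

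The other genes of translation were followed in lists written for ribosome production and its control. Beside their counts of higher means stand 45.5% of all rows and 59.8% of genes with a mean of at least 9. Elongation factors and further mRNAs with a TOP motif had 14 measured genes, 10 with higher means and 4 with lower ones, and a median difference of 0.06. Of these, 1 had an unadjusted p under 0.05 (7.14%, against 7.07% of all rows). This was Eef1e1, a scaffold protein of the aminoacyl-tRNA synthetase complex named like an elongation factor. It had log2 values of 8.41 to 8.50 in controls and 8.53 to 8.66 with ursolic acid, a difference of 0.15 ± 0.06 without overlap. Pabpc1, the poly(A)-binding protein, and Eif3h, a subunit of initiation factor eIF3, had differences of 0.18 ± 0.09 and 0.11 ± 0.06.

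Ribosome biogenesis had 49 measured genes, 34 with higher means (69.4%, against 45.5% of all rows) and 15 with lower ones. Their median difference was 0.04. Of these 5 had an unadjusted p under 0.05, 4 in the higher and 1 in the lower direction, or 10.2% against 7.07% of all rows. Nop56, a core protein of the particles that methylate ribosomal RNA, had log2 values of 7.16, 7.13, 7.25 and 7.11 in controls and 7.44, 7.30, 7.49 and 7.58 with ursolic acid. Its groups did not overlap, and its difference was 0.29 ± 0.07 (limma adjusted p = 0.339). Utp15, of the small subunit processome, had a difference of 0.32 ± 0.09, and Gnl3, nucleostemin, one of 0.19 ± 0.07. Their limma adjusted p-values were 0.402 and 0.631.

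For RNA polymerase I and its factors, which copy the ribosomal RNA genes, 5 of 10 genes were higher and 5 lower. An unadjusted p under 0.05 was reached by 0 of them, where 7.07% of all rows had one. Polr1b and Polr1e, subunits of that polymerase, had differences of 0.12 ± 0.07 and 0.10 ± 0.09, and Ubtf, which activates the ribosomal RNA genes, had one of 0.07 ± 0.07. Initiation and release factors had 28 measured genes, 17 with higher means and 11 with lower ones. Of these, 1 in each direction had an unadjusted p under 0.05 (7.14%, against 7.07% of all rows). Gspt2, a release factor, had a difference of 0.34 ± 0.11, and Eif4a3, a helicase of the exon junction complex, one of −0.40 ± 0.15. Eif4g3, a scaffold of the initiation complex, had one of −0.12 ± 0.06.

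Among S6 kinases, mTORC1 and regulators of TOP mRNAs, 9 of 26 genes had higher means and 17 lower ones, and the median difference was −0.03. An unadjusted p under 0.05 was reached by 1 higher and 2 lower genes, or 11.5% of the list. For all rows it was 7.07%, made of 4.08% higher and 3.00% lower. Deptor, an inhibitor of mTOR, was at 6.62 to 6.78 in controls and 6.83 to 7.26 with ursolic acid, a difference of 0.30 ± 0.09. Larp1, the protein that binds the TOP motif, was at 8.18, 8.13, 8.10 and 8.07 in controls and 8.08, 7.87, 7.86 and 7.81 with ursolic acid. Only ursolic acid 1 reached into the control range, and the difference was −0.21 ± 0.07. Max, the partner of the transcription factor Myc, had a difference of −0.16 ± 0.07. Their limma adjusted p-values were 0.469, 0.571 and 0.703.

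Mitochondrial ribosomal proteins, which build the separate ribosomes of mitochondria, gave values to set beside the cytosolic ones. Of 68 genes 51 had higher means (75%, against 45.5% of all rows) and 17 lower ones, and the median difference was 0.06. An unadjusted p under 0.05 was reached by 10, all higher (14.7%, against 7.07% of all rows in either direction and 4.08% in the higher one). The cytosolic members had 2 higher and 1 lower of 22. Whether the sets differ was not tested. As examples, Mrpl47, Mrpl43 and Mrpl35 had differences of 0.25 ± 0.07, 0.19 ± 0.07 and 0.17 ± 0.06, with limma adjusted p-values of 0.392, 0.655 and 0.657.

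**Figure D4:**
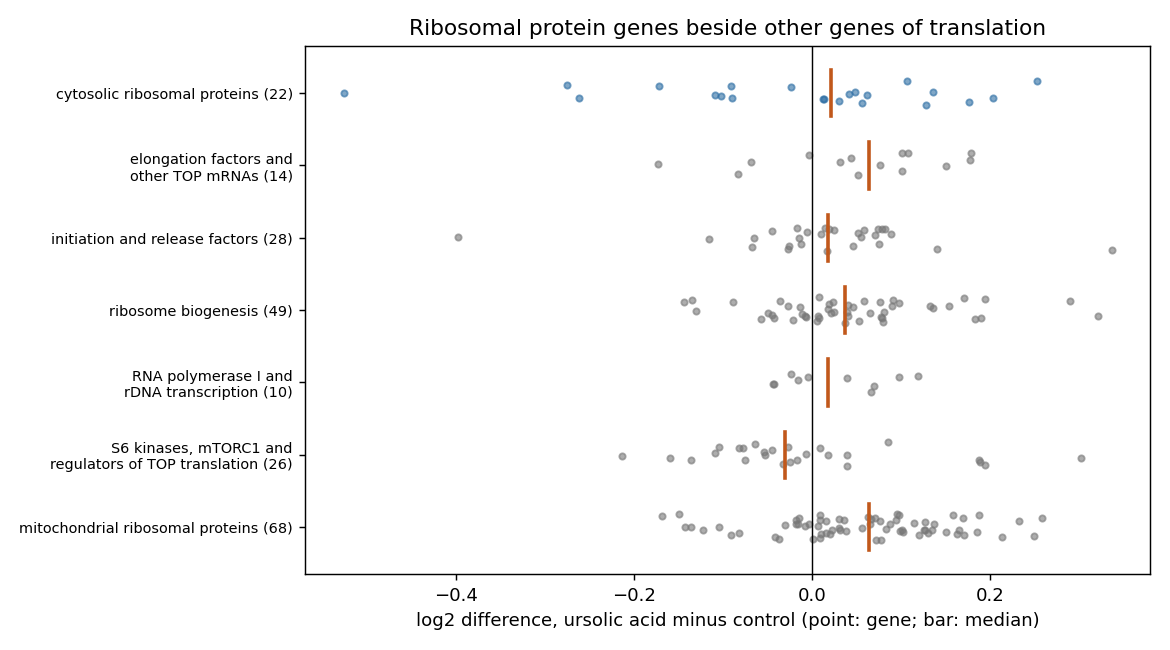
Log2 difference, ursolic acid minus control (x axis), of every measured gene in 7 lists (rows, with the number of genes), each point a gene and each orange bar the list's median. The 22 cytosolic ribosomal protein genes have a median of 0.02 and run from −0.53 (Rps18) to 0.25 (Rps20), and no gene in any list passed an adjusted p of 0.05.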

How the data were processed

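Gastrocnemius RNA from 4 control and 4 ursolic acid pools was measured on 1-colour arrays. The authors deposited log2 expression values made with RMA (background correction, normalization between arrays and probe summary), with mm9 as build, per the submitters' processing notes. Base 2 was taken from the range of the values (1.74 to 13.2). No RMA version was found in those notes. The label protocol amplified the RNA before labelling, which can shift measured levels.

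Rows were named by the platform annotation, and those with several symbols were left unnamed. Each of the 16755 rows went through lmFit and eBayes of limma 3.58.1 (R 4.3.3; two-sided, no covariate), with Benjamini-Hochberg adjustment over all rows, after a test on simulated data. Groups follow the sample titles. P-values measure the spread between these pools, which the labels do not state to be of separate mice. Members, gene lists and motifs were chosen with earlier results of these data known, and the motifs CGGAAG and AANATGGC after the promoters were seen.

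Named were members with the smallest p (12), the largest spread (4) or on a preset list, and 3 genes of each other list with the smallest p. Rps4l, Rps9, Rpl10a, Rpl23 and Rpl35a fell outside this rule and were added so that every member is described. Preset members without a row of their own, and protein sequences, were not analysed here. Macrophage and fibre genes come from marker lists that were also written with earlier results of these data known. No arrays were identical. Alternatives were a replicate block, other scalings, level filters and variance models, each sample left out, and the description as group or covariate.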

Additional observations from a re-analysis of the deposited data

Results flagged for a closer look

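Among 80 quartets of values (a gene, or a mean over genes, in the 4 pools of 1 diet), 4 held a pool that stood away from its 3 partners, about the 1 in 20 that chance yields. Each number in parentheses is that pool's distance to its closest partner as a share of the quartet's full range. Control 1 was low in Rpl10a (0.909), at 5.70 against 6.07 to 6.11 in the other controls. Ursolic acid 4 was low in Rpl31 (0.933), ursolic acid 1 was low in Rpl3l (0.837), and ursolic acid 2 was low in Rps3 (0.89).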

How the results depend on the processing

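No member passed an adjusted p of 0.05 in any alternative run, the smallest being 0.131 when rows below 8 in both groups were left out. Over all rows, the count past 0.05 rose from 0 to 27 when rows below the median level were dropped, 26 with rows below 8 left out, 12 with a variance trend and robust moderation and 23 with array weights. Members with an unadjusted p under 0.05 numbered 3, and 2 to 6 with 1 sample left out, 6 only without control 1. In those runs 5.52% to 8.59% of all rows had one. Their median difference ran from −0.0522 to 0.0391 with 1 sample left out, again lowest without control 1. Members without overlap numbered 2, and 2 to 4 when 1 sample was left out (4 without control 1 or ursolic acid 1). In those runs 6.34% to 9.6% of all rows had no overlap. The count was 1 with quantile normalization (Rps20 lost, 4.80% of all rows) and 1 with rows below 8 left out (12.5% of members, 9.12% of rows). It was 8 in the 4 samples with concordant labels (36.4% of members, 47.4% of rows) and 0 with groups by description (7.39% of rows).

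Of 378 member values under alternatives 40 changed sign, in 15 genes. With groups by description these were Rpl22 (0.0886), Rpl23 (0.29), Rpl35a (−0.11), Rpl39l (−0.0732), Rpl4 (0.37), Rps19bp1 (−0.0751), Rps20 (−0.0808), Rps24 (0.35), Rps27l (0.0579), Rps3 (−0.0668) and Rps4l (0.0295). In samples with concordant labels they were Rpl23 (0.26), Rpl35a (−0.0552), Rpl39l (−0.0435), Rpl4 (0.27), Rps19bp1 (−0.0338) and Rps24 (0.18). With array weights they were Rpl10a (−0.0623) and Rpl31 (−0.0138), and with quantile normalization Rps9 (−0.0025). With 1 sample left out, the differences that crossed 0 were those of Rpl10a (−0.087 to 0.10), Rpl23 (−0.24 to 0.10), Rpl31 (−0.0946 to 0.44), Rpl35a (−0.0395 to 0.14), Rpl39l (−0.0378 to 0.0951), Rpl4 (−0.38 to 0.0396), Rpl7l1 (−0.0173 to 0.22), Rps19bp1 (−0.00684 to 0.0947), Rps24 (−0.34 to 0.0114) and Rps9 (−0.00978 to 0.028). The causes were not tested.

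Deviations of same-numbered samples of the groups had small positive correlations over all rows (0.133, 0.083, 0.018 and 0.186). Same-numbered samples also share a description. Pools described alike but numbered differently had 0.198, 0.058, −0.022 and 0.152. These lay in much the same range as the same-numbered ones, and whether the number adds to the description was not tested. The labels do not state that the numbers pair samples, so they were not taken to pair them. Across the groups, pools described alike had correlations of −0.022 to 0.198 and pools described as opposite −0.21 to 0.029. With the replicate number as a block 8.82% of all rows had an unadjusted p under 0.05, against 7.07% in the main fit. The same 3 members had one, and the smallest limma adjusted p of a member was 0.287, so no member's call changed. In the other lists the count went from 1 to 0 for the list of elongation factors and TOP mRNAs, with Eef1e1 lost. It went from 5 to 4 for ribosome biogenesis (Nob1) and from 10 to 8 for mitochondrial ribosomal proteins. For mTORC1 and its partners it stayed at 3, with Max lost and Myc gained. The number of arrays and the spread of dim rows limit what could be detected.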
